A study of Mus musculus with 14 samples.

Results

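The 76 genes described here are named for proteins of the mitochondrial ribosome (mitoribosome). They were chosen by name alone, as every gene whose single annotated symbol is Mrpl or Mrps with a number and at most 1 further letter. They are 76 of the 18194 genes that the array annotation names singly, and their 156 probe sets are part of 34958. All 76 passed the filter on low values, through 134 of their probe sets, and belong to the 12261 genes tested. The rule itself uses no measured value.

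RNA of mouse left ventricle was measured on 14 Affymetrix Mouse430_2 arrays to see how loss of Hsp22, a small heat shock protein also called H11 kinase and encoded by Hspb8, alters gene expression before and during cardiac stress. All mice were male C57BL/6, of an age that the labels do not state. The 4 groups were wild-type hearts in the basal state (3 arrays), Hsp22 knockout hearts in the basal state (3 arrays), and wild-type (4 arrays) and Hsp22 knockout hearts (4 arrays) 3 days after transverse aortic constriction (TAC), in which the aorta is tied to a narrower width so that the heart pumps against pressure overload. The labels name no sham-operated group and do not say which part of Hspb8 is missing or in which cells. Nor do they tell whether every array holds its own animal, so the spread behind the p-values is that between these samples and may be technical.

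The 2 Hspb8 probe sets ending in plain _at read at least 10.26 on the log2 scale in every wild-type array and at most 5.92 in every knockout array. The third, of the class x that can bind related transcripts, read 8.79 to 10.01 in wild-type and 8.20 to 8.84 in knockout arrays. By their array file names, basal and TAC arrays belong to separate runs, and in every comparison of TAC with basal hearts the run and the surgery cannot be told apart. Basal knockout 3 was not run on the same day as the remaining basal arrays. The 9 ventricular cardiomyocyte markers averaged between 13.93 and 14.30 in every array; the label is left ventricle. Across probe sets, TAC wild-type arrays correlated with each other with r between 0.967 and 0.993, against 0.986 to 0.995 in TAC knockout. The median r to its own group was lowest for TAC wild type 3 (0.978), with 0.983, 0.988 and 0.988 for TAC wild type 1, 2 and 4. The mean of TAC wild type 3 over 9 macrophage markers was 10.37 (other TAC wild-type arrays, 8.07 to 8.79). Results that rest on that array are given with and without it.

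Mitoribosomes translate the few messages of the mitochondrial genome, all of which encode membrane subunits of the respiratory chain and ATP synthase. Their rRNAs come from mitochondrial DNA, but every protein of the particle is encoded in the nucleus, made in the cytosol and imported, so that assembly depends on the supply from both genomes. The large subunit (proteins named Mrpl) holds the catalytic centre and the exit tunnel, and the small subunit (mostly Mrps) decodes the message. The heart, which runs on mitochondrial ATP, is among the organs affected when mitoribosomal genes are mutated in humans. In bulk tissue, fewer cells of a type and less RNA per cell cannot be told apart.

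By place in the particle, 49 members are large subunit proteins, 26 are small subunit proteins, and 1, Mrps36, carries the name of a ribosomal protein but is now known as a component of the 2-oxoglutarate dehydrogenase complex. Of the 75 ribosomal ones, 46 have a counterpart in the bacterial ribosome (for Mrps18a, a paralog of one) and 29, Mrps18b among them, are classed as mitochondria-specific. Of a gene's kept probe sets, the one brightest on average stood for it. Over all arrays the members' mean log2 levels ran from 8.12 for Mrpl1 to 13.01 for Mrpl42 with a median of 10.34, while the median of all genes tested was 7.94. These are probe set signals, which do not rank genes by amount. The lowest value of any member in any array was 7.78, against a filter of 5.75.

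Some promoters are shown first, since the proteins of 1 particle come from genes on many chromosomes. RefSeq sequences of build GRCm38.p6, from 250 bases before to 50 after each gene's start, were given for 67 of the 76 members (73 promoters). Mrpl28, the member with the largest fall after TAC on its brightest probe set, has none of the 5 motifs searched in its 250 bases before the start. Mrpl12, whose protein forms the flexible stalk that recruits translation factors, has a motif of NRF1 (nuclear respiratory factor 1, a regulator of nuclear genes for mitochondria), and Mrpl22, a protein of the exit tunnel, has a motif of the ETS family that includes GABP. Capitals mark the motifs.
Mrpl28, chr17:26123253-26123502, plus strand: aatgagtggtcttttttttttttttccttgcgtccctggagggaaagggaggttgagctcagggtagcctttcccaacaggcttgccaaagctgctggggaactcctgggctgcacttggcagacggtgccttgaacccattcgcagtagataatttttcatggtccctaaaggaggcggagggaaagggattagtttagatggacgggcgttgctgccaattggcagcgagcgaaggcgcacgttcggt
Mrpl12, chr11:120484387-120484636, plus strand: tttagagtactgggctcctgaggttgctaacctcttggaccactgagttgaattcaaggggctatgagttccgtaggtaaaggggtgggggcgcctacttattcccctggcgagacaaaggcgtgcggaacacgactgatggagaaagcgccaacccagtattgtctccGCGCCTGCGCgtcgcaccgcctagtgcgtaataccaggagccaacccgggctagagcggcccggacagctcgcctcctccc
Mrpl22, chr11:58171414-58171663, plus strand: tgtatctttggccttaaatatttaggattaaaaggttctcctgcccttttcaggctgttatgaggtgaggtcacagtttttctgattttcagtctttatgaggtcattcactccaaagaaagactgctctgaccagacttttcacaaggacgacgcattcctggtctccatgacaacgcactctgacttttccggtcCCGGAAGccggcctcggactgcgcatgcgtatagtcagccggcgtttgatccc
The NRF1 motif of Mrpl12 begins 81 bases before its start and the ETS motif of Mrpl22 53 bases before. The upstream stretch of Mrps18c, a small subunit protein whose level rose after TAC, holds an E-box (the motif of Myc and related factors) at 163 bases and an ETS motif at 156 bases before the start, side by side.
Mrps18c, chr5:100798588-100798617, plus strand: ccccgggtCACGTGaCTTCCGGcccgggaa

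Each motif was counted once per promoter, on either strand, in the windows above. The ETS motif CCGGAAG stood in 25 of the 73 member promoters (34.2%), in 16.18% of the 12660 promoters of genes tested and in 8.86% of all 32851 promoters. The NRF1 motif stood in 12 (16.4%), against 9.21% and 4.6%. The YY1 motif AAGATGGCG stood in 8 (11%), against 2.79% and 1.4%. The E-box CACGTG stood in 7 (9.6%), against 9.63% and 7.15%, and the motif CAAGGTCA of the estrogen-related receptors in 2 (2.7%), against 1.14% and 1.56%. A promoter can hold several motifs, and matches can overlap: the ETS motif ends in the letters with which the YY1 motif begins. Median GC content was 58.7% in member promoters and 60.3% in those of genes tested, with medians of 21 and 20 CpG dinucleotides. Of the 26 members that fell after TAC in the knockout, 21 have a promoter in the table. Among these, 5 hold the ETS motif, 2 the NRF1 motif, 2 the YY1 motif, 2 the E-box and 0 the receptor motif. Such matches are runs of letters and not measured binding sites.

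Many members also start near a neighbour that is read in the other direction. A start of another gene, on the other strand and at most 1000 bases upstream, lay beside 25 of 67 members (37.3%), against 18.9% of genes tested and 12.3% of all genes. Mrps11 and Mrpl46, of the small and the large subunit, start 42 bases apart. The stretches between such pairs are given on the strand of the first gene named, with the ETS motif in capitals.
Mrps11 and Mrpl46, chr7:78783090-78783130, plus strand: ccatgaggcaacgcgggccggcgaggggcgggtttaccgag
Mrpl43 and Twnk, chr19:45006443-45006557, minus strand: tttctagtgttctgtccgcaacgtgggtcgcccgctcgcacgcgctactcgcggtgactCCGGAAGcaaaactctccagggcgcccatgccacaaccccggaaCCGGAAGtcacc
Mrps27 and Ptcd2, chr13:99344679-99344785, plus strand: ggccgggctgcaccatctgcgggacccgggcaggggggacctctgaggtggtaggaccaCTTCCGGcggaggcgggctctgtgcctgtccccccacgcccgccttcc
Mrps12 and Sars2, chr7:28741822-28741967, minus strand: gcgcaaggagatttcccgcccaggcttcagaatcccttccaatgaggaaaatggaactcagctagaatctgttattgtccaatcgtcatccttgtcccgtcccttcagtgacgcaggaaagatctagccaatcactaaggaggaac
Mrpl49 and Fau, chr19:6057756-6057946, minus strand: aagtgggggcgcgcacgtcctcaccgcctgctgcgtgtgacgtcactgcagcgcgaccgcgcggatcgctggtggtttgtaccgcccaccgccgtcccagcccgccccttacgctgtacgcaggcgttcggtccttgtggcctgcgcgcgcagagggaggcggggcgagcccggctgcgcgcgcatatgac
Twnk (the mitochondrial DNA helicase), Ptcd2 (a mitochondrial RNA-binding protein) and Sars2 (mitochondrial seryl-tRNA synthetase) also serve mitochondrial gene expression, whereas Fau gives a protein of the cytosolic ribosome.

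In wild-type hearts, members differed in both directions after TAC: 9 of 76 rose and 11 fell at a Benjamini-Hochberg adjusted p under 0.05 in limma. Over all genes tested, 26.9% rose and 23.8% fell, so a smaller share of members than of all genes passed in each direction. The members' differences ran from -0.81 to 0.67 on the log2 scale with a median of -0.10, against 0.02 for all genes. The values of the TAC arrays lay wholly above those of the basal arrays for 12 members and wholly below for 10; the same held for 25.5% and 24.4% of all genes. The counts turned on single arrays. Shares of all genes with an array left out are not given here, so the following counts are not set against all genes. Without basal wild type 1 there were 12 calls in all and 5 falls, with a median of -0.05. Without basal wild type 3 or without TAC wild type 4 there were 13 calls. There were 5 rises without basal wild type 2 and 5 without basal wild type 3. The falls numbered 23 without TAC wild type 1 (median -0.157), 7 without TAC wild type 3 and 7 without TAC wild type 4.

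In knockout hearts, 3 members rose and 26 fell after TAC, against 22.7% of all genes that rose and 21.8% that fell. Differences ran from -0.98 to 0.64 with a median of -0.22, against -0.02 for all genes. Groups did not overlap for 3 members above and 38 below, and for 27.7% and 26.7% of all genes. Without basal knockout 1 there were 19 calls and 17 falls (the shares of all genes are not given here), and the median was -0.225. The direction of the median did not turn when any single array of the comparison was left out (range -0.253 to -0.194).

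**Figure D1:**
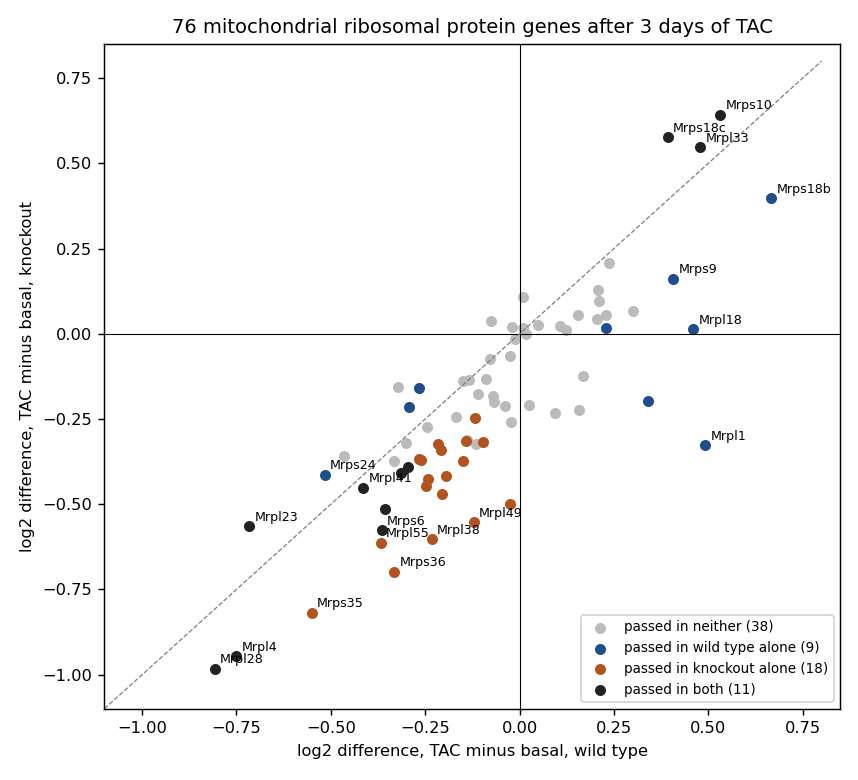
Log2 difference of TAC minus basal hearts in wild type (horizontal) and knockout (vertical) for the 76 members, 1 point per gene; the dashed line marks equal differences and colour marks the comparison in which limma's adjusted p was under 0.05. The 11 genes that passed in both lie in the lower left (8) and upper right (3), and 61 of 76 points lie below the dashed line.

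How the array values are scaled matters for the wild-type comparison. Quantile normalization moved the median of all genes from 0.018 to -0.10 and that of members from -0.104 to -0.268, which left members 0.168 below all genes (0.123 below as deposited). It gave 3 rises and 32 falls among members, with 20.9% and 30.1% of all genes. Centring each array on its median instead gave 12 rises and 6 falls, with 30.9% and 18.3% of all genes. In the knockout, quantile normalization gave 3 rises and 40 falls, with 20.2% and 26.4% of all genes, and members lay 0.241 below the median of all genes (0.204 as deposited).

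The largest falls shared by both genotypes were in large subunit proteins. Mrpl28, a large subunit protein with a bacterial counterpart, read 11.08, 10.73 and 10.93 in basal wild type and 11.03, 11.07 and 10.88 in basal knockout. It read 10.51, 10.46, 9.62 and 9.83 in TAC wild type and 10.22, 9.94, 10.09 and 9.79 in TAC knockout. All 8 TAC arrays lay below all 6 basal arrays, with TAC wild type 3 the lowest. The difference was -0.81 (SE 0.20, adjusted p = 0.00511) in wild type, a 1.75-fold fall, and -0.98 (SE 0.20, adjusted p = 0.00219) in knockout, a 1.98-fold fall. The mean of its probe sets did not pass in wild type (adjusted p = 0.107). Its other kept probe sets, of the class x, averaged 10.427 and 9.693 in basal wild type and 10.478 and 9.605 in TAC wild type. In knockout they averaged 10.523 and 9.717 before and 10.300 and 9.722 after TAC. The knockout call held under every alternative, with differences from -1.08 to -0.40. The size of the fall therefore depends on the probe set, and the values above are those of the brightest.

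Mrpl4 and Mrpl23 are proteins of the exit tunnel, through which the new chain leaves the ribosome. Mrpl4 read 11.10, 10.96 and 11.01 in basal wild type, 11.04, 10.94 and 10.93 in basal knockout, 10.58, 10.43, 9.92 and 10.16 in TAC wild type, and 10.11, 10.00, 10.16 and 9.83 in TAC knockout. Groups were again apart, and basal arrays spread over less than the TAC arrays. The fall was -0.75 (SE 0.14, adjusted p = 0.00112) in wild type and -0.94 (SE 0.14, adjusted p = 0.000458) in knockout. Mrpl23 read 11.28, 11.22 and 11.43 in basal wild type, 11.15, 11.10 and 10.93 in basal knockout, 10.73, 10.74, 10.36 and 10.54 in TAC wild type, and 10.66, 10.45, 10.52 and 10.35 in TAC knockout. Every basal array exceeded every TAC array. Its difference was -0.72 in wild type (adjusted p = 0.000517) and -0.56 in knockout (adjusted p = 0.00257), and the basal knockout arrays lay below the basal wild-type arrays without passing the test.

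Mrpl10 and Mrpl12 build the stalk that brings translation factors to the particle, Mrpl10 as its anchor and Mrpl12 as its movable part. Mrpl10 read 10.37, 10.24 and 10.19 in basal wild type, 10.35, 10.18 and 10.28 in basal knockout, 10.09, 9.94, 9.84 and 9.77 in TAC wild type, and 9.69, 9.83, 9.88 and 9.63 in TAC knockout. It fell by 0.36 in wild type (adjusted p = 0.0125, 0.0519 without basal wild type 1) and by 0.51 in knockout (adjusted p = 0.00225). Mrpl12, which is also known to bind the mitochondrial RNA polymerase, read 11.61, 11.43 and 11.51, then 11.47, 11.56 and 11.44, in the basal groups, 11.32, 11.29, 11.25 and 11.43 in TAC wild type and 10.79, 11.10, 11.15 and 11.25 in TAC knockout. TAC wild type touched the basal range, and TAC knockout lay below it. The difference was -0.19 in wild type (adjusted p = 0.151) and -0.42 in knockout (adjusted p = 0.00902). The stalk base protein Mrpl11 differed by 0.23 in wild type (adjusted p = 0.0427) and by 0.02 in knockout (adjusted p = 0.891). Its wild-type call was lost under 13 of 25 alternatives, 9 of which left out 1 array.

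Mrpl41, a mitochondria-specific large subunit protein, read 11.67, 11.56 and 11.65 in basal wild type, 11.66, 11.61 and 11.52 in basal knockout, 11.36, 11.21, 11.09 and 11.19 in TAC wild type, and 11.08, 11.15, 11.20 and 11.15 in TAC knockout. Its fall was of like size in both genotypes, -0.41 (adjusted p = 0.0023) and -0.45 (adjusted p = 0.00183), and in wild type it passed under every alternative. Mrpl46, a protein of the large subunit's central protuberance, fell by 0.30 (adjusted p = 0.0471) and 0.39 (adjusted p = 0.0163). The small subunit proteins Mrps28 and Mrps6 complete the 8 members that fell in both genotypes. Mrps28, mutated in a human mitochondrial disease, differed by -0.31 (adjusted p = 0.0287) and -0.41 (adjusted p = 0.00952). Mrps6 differed by -0.36 (adjusted p = 0.0364) and -0.58 (adjusted p = 0.0047). In wild type, both calls were lost without basal wild type 1, basal wild type 3, TAC wild type 3 or TAC wild type 4, with adjusted p up to 0.0952 for Mrps28 and 0.118 for Mrps6 over all alternatives.

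Against this, 3 members rose in both genotypes. Mrpl33, a large subunit protein with a bacterial counterpart, read 10.10, 10.11 and 10.11 in basal wild type, 10.00, 10.05 and 9.98 in basal knockout, 10.46, 10.65, 10.61 and 10.62 in TAC wild type, and 10.38, 10.61, 10.53 and 10.71 in TAC knockout. All TAC arrays exceeded all basal arrays. It rose by 0.48 (SE 0.09, adjusted p = 0.00141) in wild type and by 0.55 (SE 0.09, adjusted p = 0.000902) in knockout, and passed under every alternative.

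The Mrps18 family did not move as 1. Mammals carry 3 genes derived from a single bacterial protein: Mrps18c at the bacterial position in the small subunit, Mrps18b elsewhere in the small subunit and Mrps18a in the large subunit. Mrps18c read 10.58, 10.38 and 10.48 in basal wild type, 10.21, 10.31 and 10.41 in basal knockout, 10.79, 10.92, 10.85 and 10.93 in TAC wild type, and 10.73, 10.93, 10.86 and 11.03 in TAC knockout. Its TAC arrays exceeded all basal arrays, and the rise was 0.39 (adjusted p = 0.00541) in wild type and 0.58 (adjusted p = 0.00086) in knockout, which passed under every alternative. Mrps18b read 9.35, 9.51 and 9.36 in basal wild type, 9.54, 9.42 and 9.43 in basal knockout, 9.96, 9.91, 10.16 and 10.26 in TAC wild type, and 9.46, 9.72, 9.86 and 10.40 in TAC knockout. It rose by 0.67 in wild type (SE 0.17, adjusted p = 0.00712), the largest rise of any member there, and passed under every alternative. In knockout the difference was 0.40 (adjusted p = 0.0776), with TAC knockout 1 inside the basal range. Mrps18a read 10.78, 10.67 and 10.64, then 10.69, 10.66 and 10.59, in the basal groups, 10.85, 10.68, 10.40 and 10.59 in TAC wild type, and 10.28, 10.47, 10.50 and 10.54 in TAC knockout. It differed by -0.07 (adjusted p = 0.625) and -0.20 (adjusted p = 0.152), and the TAC wild-type arrays straddled the basal ones.

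Mrps10, a small subunit protein with a bacterial counterpart, read 9.29, 9.13 and 8.77 in basal wild type, 8.78, 9.15 and 8.75 in basal knockout, 9.48, 9.41, 9.67 and 9.82 in TAC wild type, and 9.22, 9.37, 9.52 and 10.03 in TAC knockout. It rose by 0.53 (adjusted p = 0.0327) and 0.64 (adjusted p = 0.0163). Its spread between arrays of a group was wide, and the mean of its probe sets passed in neither genotype (largest adjusted p of 0.753 and 0.586). The wild-type call was lost without basal wild type 2, basal wild type 3, TAC wild type 3 or TAC wild type 4, and the knockout call without basal knockout 1 or basal knockout 3.

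**Figure D2:**
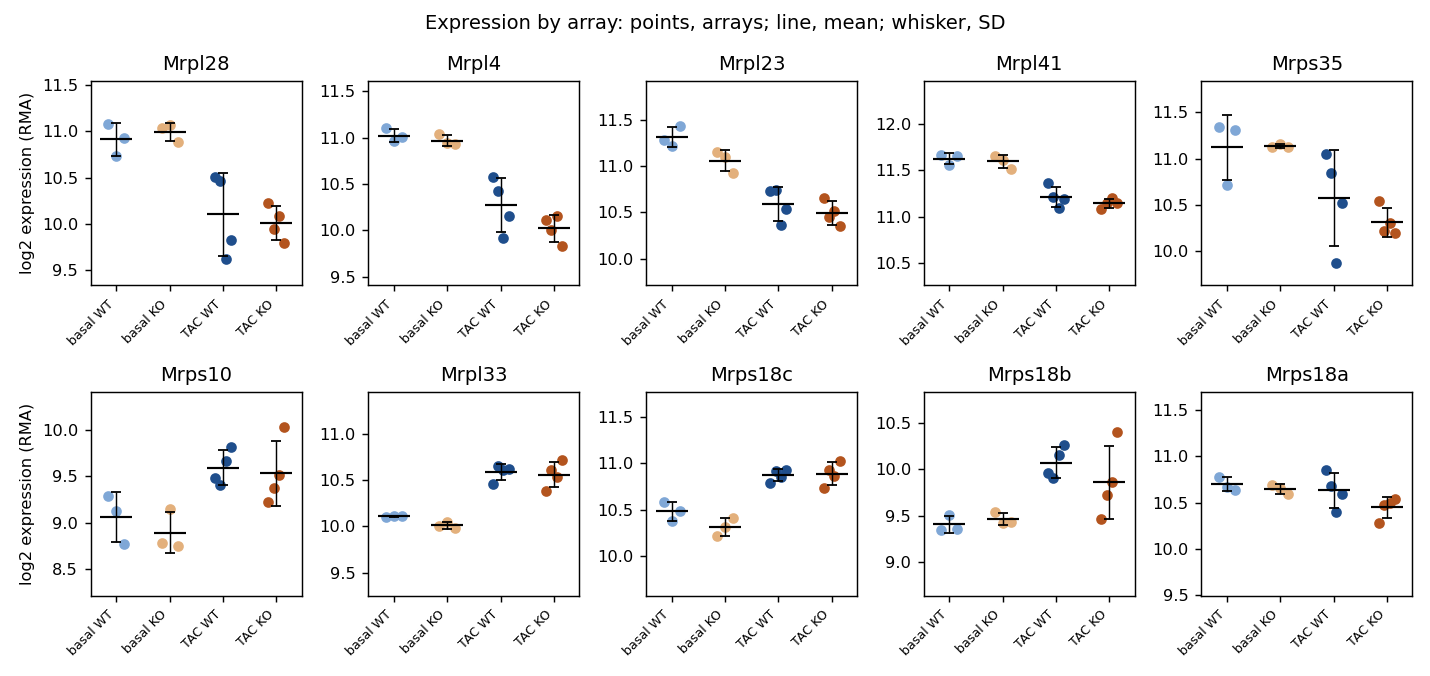
Log2 RMA expression of 10 members in each of the 14 arrays; points are arrays, the line is the group mean and the whisker its SD, and each panel spans 2.2 log2 units. Mrpl28, Mrpl4, Mrpl23 and Mrpl41 lie lower, and Mrps10, Mrpl33 and Mrps18c higher, in both TAC groups than in the basal group of the same genotype; Mrps35 passed as lower in knockout, Mrps18b as higher in wild type and Mrps18a in neither.

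A further 18 members passed as lower in knockout hearts and not in wild-type hearts, but no member passed the test of the difference between the genotypes' responses, so they are not shown to respond differently. Mrps35, a mitochondria-specific small subunit protein, had the largest of these differences. It read 11.34, 10.72 and 11.31 in basal wild type, 11.12, 11.16 and 11.12 in basal knockout, 11.05, 10.85, 9.87 and 10.52 in TAC wild type, and 10.54, 10.22, 10.30 and 10.20 in TAC knockout. TAC wild-type arrays spread over more than 1 log2 unit, and the TAC knockout arrays lay close together. The difference was -0.82 in knockout (SE 0.23, adjusted p = 0.0132) and -0.55 in wild type (SE 0.23, adjusted p = 0.0618). The difference of these differences was -0.27 (95% interval -0.97 to 0.44).

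Mrps36, the 2-oxoglutarate dehydrogenase component, read 11.43, 11.31 and 10.96 in basal knockout and 10.67, 10.70, 10.59 and 10.18 in TAC knockout, a fall of 0.70 (adjusted p = 0.00301). In wild type it read 11.34, 11.01 and 11.19 before and 10.98, 10.90, 10.68 and 10.83 after TAC, a difference of -0.33 (adjusted p = 0.0775). Mrpl55, a large subunit protein with a bacterial counterpart, fell by 0.61 in knockout (adjusted p = 0.0174) and lost its call without basal knockout 1 or basal knockout 3, with an adjusted p of up to 0.0609. Mrpl38, of the central protuberance, fell by 0.60 in knockout (adjusted p = 0.00195) on a probe set of the class that can bind several transcripts, and its other probe set did not pass (adjusted p = 0.111). The small subunit protein Mrps16, mutated in a fatal neonatal mitochondrial disease, fell by 0.32 in knockout (adjusted p = 0.0259) and lost its call without basal knockout 1, basal knockout 2 or TAC knockout 4 (adjusted p up to 0.0922 over all alternatives). The other 13 of these 18, counting Mrpl12 and Mrpl47 described elsewhere, were Mrpl2, Mrpl13, Mrpl16, Mrpl22, Mrpl34, Mrpl37, Mrpl39, Mrpl43, Mrpl49, Mrpl50 and Mrps27, and their knockout differences lay between -0.55 for Mrpl49 and -0.25 for Mrpl50.

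Lower in wild type and not past the threshold in knockout were Mrps24, a message-entry protein of the small subunit (-0.52, adjusted p = 0.0183, and -0.41, adjusted p = 0.0521), Mrpl27, a protein near the catalytic centre (-0.29, adjusted p = 0.0136, and -0.21, adjusted p = 0.0579), and Mrpl57 (-0.27, adjusted p = 0.042, and -0.16, adjusted p = 0.209). The Mrps24 call was lost without basal wild type 1 and that of Mrpl27 without basal wild type 2. Besides Mrps18b and Mrpl11, those higher in wild type alone were Mrpl1, Mrpl18, Mrpl19 and Mrps9, a small subunit protein with a bacterial counterpart (0.41, adjusted p = 0.0321). Mrps9 lost its call without any 1 of the 3 basal wild-type arrays and without TAC wild type 1 or 2, with an adjusted p of up to 0.541 over all alternatives. No member passed in opposite directions in the 2 genotypes.

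By subunit, 8 of 49 large subunit members fell and 5 rose in wild type, with a median of -0.117, and 3 of 26 small subunit members fell and 4 rose, with a median of -0.025. In knockout, 20 large subunit members fell and 1 rose (median -0.243), and 5 small subunit members fell and 2 rose (median -0.168). By origin, 15 of 46 members with a bacterial counterpart fell in knockout and 3 rose, and 10 of 29 mitochondria-specific members fell and 0 rose. In wild type these counts were 8 falls and 8 rises among the former, and 3 falls and 1 rise among the latter. Over all genes the shares were 26.9% risen and 23.8% fallen in wild type, and 22.7% and 21.8% in knockout. The classes were tested neither against each other nor against all genes.

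Some members linked to human disease or to mitoribosome regulation did not pass in either genotype on the probe sets that stood for them. MRPL3, MRPL44 and MRPS22 are mutated in human cardiomyopathies. Mrpl3 differed by 0.21 in wild type (adjusted p = 0.155) and 0.13 in knockout (adjusted p = 0.391). Mrpl44 differed by -0.04 and -0.21 (adjusted p = 0.808 and 0.18), and Mrps22 by 0.21 and 0.10 (adjusted p = 0.134 and 0.498). Over all alternatives, the smallest limma adjusted p was 0.0202 and 0.0218 for Mrpl3 and 0.0372 and 0.0294 for Mrpl44. On the kept probe set of each gene with the smallest p in that comparison, Mrpl3 differed by -0.384 in knockout and Mrpl44 by 0.307 in wild type. Mrps2, Mrps7, Mrps14 and Mrps34, small subunit proteins with known human disease mutations, had differences between -0.12 for Mrps2 in knockout and 0.30 for Mrps34 in wild type. On its other probe set, Mrps2 averaged 8.430 in basal and 7.965 in TAC wild type, and 8.347 and 7.770 in knockout. Over all alternatives, its limma adjusted p went down to 0.00671 in wild type and 0.00251 in knockout. Mrps5, studied for its link to lifespan, differed by -0.13 and -0.14, and Mrps12, of the decoding centre, by -0.32 (adjusted p = 0.0596) and -0.16. Mrpl32, which must be cut by the m-AAA protease before it can join the particle, differed by 0.12 and 0.01. Mrpl45, which holds the particle at the inner membrane, differed by -0.14 (adjusted p = 0.355) and -0.31 (adjusted p = 0.0518), and Mrps30, a large subunit protein despite its name, by -0.09 and -0.13. Under some alternatives Mrps5, Mrps12, Mrps14 and Mrps34 passed in wild type and Mrpl45 in knockout.

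Several probe sets of a gene did not always move together. Counted singly, 22 of the 134 kept probe sets rose and 13 fell in wild type, and 11 rose and 43 fell in knockout. Over all 21229 kept probe sets, 28.3% rose and 22.1% fell in wild type, and 23.5% rose and 20.7% fell in knockout. Of the 35 genes with several kept probe sets, all had 1 sign in 16 in wild type and in 13 in knockout. In wild type, Mrpl27 fell on its bright probe set (-0.29, mean 11.20 in basal wild type) and rose on a dim one (0.36, adjusted p = 0.0372, mean 6.16). In knockout, Mrpl13 fell on its brightest probe set (-0.37, adjusted p = 0.0252), whose basal wild-type mean was 11.49. It rose on the dimmest, with a mean of 6.46 (0.48, adjusted p = 0.00337), and on the third, with a mean of 8.85 (0.58, adjusted p = 0.00299). In wild type the third rose by 1.14 (adjusted p = 4.75e-05) while the brightest differed by -0.15. The direction of Mrpl13 therefore depends on the probe set, and its level is uncertain. Likewise uncertain are the 7 members measured on probe sets of the classes s and x, which can bind related transcripts: Mrpl15, Mrpl19, Mrpl37, Mrpl38, Mrps6, Mrps12 and Mrps24.

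In basal hearts, knockout and wild type were not distinguished for any member: 0 of 76 passed, and 0.0% of all 12261 genes did. Hspb8 itself entered this test on its probe set of the class x, which was its brightest on average over all arrays. It did not pass on that probe set, although its other probe sets lay far lower in knockout arrays. At an unadjusted p under 0.05, 0 members were lower and 0 higher, against 2.41% and 3.36% of all genes. The smallest adjusted p of a member was 0.87, for Mrpl23 (-0.25, 95% interval -0.52 to 0.02). The next were Mrpl3 (-0.25), Mrpl54 (-0.21), Mrpl1 (0.26) and Mrps18c (-0.17), with adjusted p between 0.884 and 0.961. The difference was below 0 for 49 of 76 members (64.5%), against 46.4% of all genes. The members' median difference was -0.05, against 0.013 for all genes. It was -0.036 without basal knockout 3, the array of another day, and 0.006 without basal wild type 1. The knockout arrays lay wholly below the wild-type arrays for 6 members (Mrpl23, Mrpl33, Mrpl51, Mrpl54, Mrps24 and Mrps31) and wholly above for 0, against 6.13% and 7.46% of all genes.

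After TAC, the knockout was on the low side of the wild type for nearly the whole set, by small amounts. The difference, knockout minus wild type, was below 0 for 74 of 76 members (97.4%), against 53.7% of all genes, with a median of -0.148 against -0.018 for all genes. Mrps12 (0.07) and Mrps18c (0.01) were the exceptions. Lists of other genes for mitochondrial gene expression also had medians below 0 in this comparison, given below. No member passed the test, with a smallest adjusted p of 0.296, and 1 of all genes did (0.00816%). That gene was higher in knockout, so it was not Hspb8, which was again tested on its probe set of the class x. At an unadjusted p under 0.05, 17 members were lower and 0 higher, against 4.76% and 3.38% of all genes. Groups did not overlap for 9 members, all lower (Mrpl1, Mrpl3, Mrpl18, Mrpl19, Mrpl21, Mrpl47, Mrps2, Mrps6 and Mrps15), against 2.3% of all genes lower and 1.69% higher. Both groups lie in 1 run. The number of members below 0 was 67 after quantile normalization, 75 after median centring and 69 to 74 when 1 array was left out.

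The 5 members with the smallest p in this comparison had TAC knockout arrays below all TAC wild-type arrays. Mrpl1, of the stalk through which spent tRNA leaves, read 8.47, 8.44, 8.11 and 8.72 in TAC wild type and 7.80, 7.78, 7.88 and 8.06 in TAC knockout. The basal arrays read 7.88, 8.10 and 7.85 in wild type and 8.26, 8.36 and 8.0 in knockout, the opposite order for most arrays. It differed by -0.56 after TAC (95% interval -0.84 to -0.27, adjusted p = 0.296). Mrpl1 rose by 0.49 after TAC in wild type (adjusted p = 0.0118) and differed by -0.33 in knockout (adjusted p = 0.0746). The difference between these responses was -0.82 (95% interval -1.25 to -0.39, adjusted p = 0.464). The dimmer kept probe set of Mrpl1 averaged 7.237 in basal wild type, 7.197 in basal knockout, 7.547 in TAC wild type and 7.255 in TAC knockout. On it the knockout was also lower after TAC, but it was not higher in basal hearts and did not fall after TAC. The size of the difference between responses therefore depends on the probe set.

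Mrpl47, a protein near the tunnel exit, read 10.47, 10.32, 9.87 and 10.25 in TAC wild type and 9.83, 9.61, 9.85 and 9.83 in TAC knockout, a difference of -0.45 (95% interval -0.71 to -0.18, adjusted p = 0.327). TAC wild type 3 lay nearly level with the knockout arrays. Mrpl18, of the central protuberance, read 11, 10.72, 10.67 and 10.61 in TAC wild type and 10.43, 10.41, 10.29 and 10.19 in TAC knockout. It differed by -0.42 (adjusted p = 0.306), having risen by 0.46 after TAC in wild type (adjusted p = 0.00777) with a difference of 0.01 in knockout. Mrpl19, at the interface between subunits, read 9.43, 9.35, 9.36 and 9.45 in TAC wild type and 8.96, 8.78, 9.05 and 9.11 in TAC knockout, a difference of -0.42 (adjusted p = 0.308). Its rise in wild type was 0.34 (adjusted p = 0.0339), and that call was lost without any 1 of the 3 basal wild-type arrays and without TAC wild type 1 or 4 (adjusted p up to 0.313 over all alternatives). Mrps15, a small subunit protein, read 10.06, 9.82, 9.81 and 9.68 against 9.65, 9.52, 9.58 and 9.27, a difference of -0.34 (adjusted p = 0.408). Another kept probe set of Mrps15 averaged 9.580 in TAC wild type and 9.315 in TAC knockout. Its dimmest went the other way, with 5.522 and 5.865. Over all alternatives the Mrps15 difference lay between -0.392 and -0.087.

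TAC wild type 3 bears on this comparison. Without it, Mrpl1 (-0.66, adjusted p = 0.0281) and Mrpl47 (-0.57, adjusted p = 0.0287) passed as lower, 2 of 76 members against 0.155% of all genes, and the median was -0.213. Without TAC wild type 1 the median was -0.106, with 0 calls. With arrays weighted by their quality, which gave TAC wild type 3 a weight of 0.187 and TAC knockout 3 one of 4.73, 24 members passed, all lower, against 13.3% of all genes lower.

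**Figure D3:**
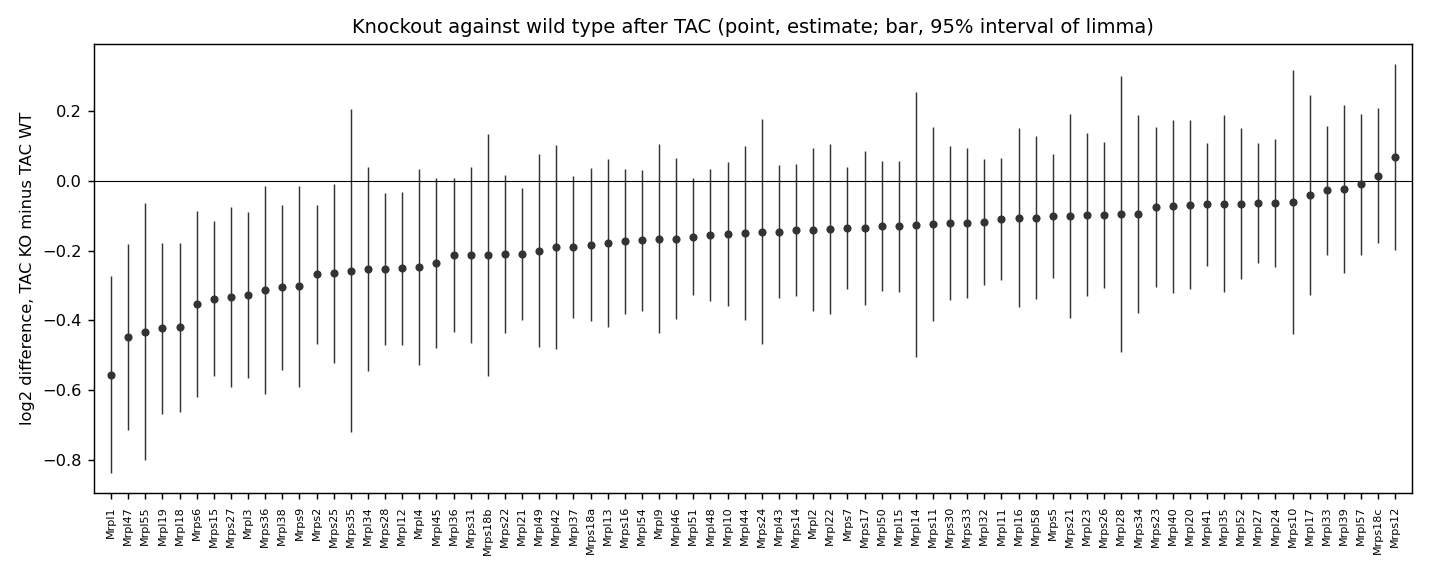
Log2 difference of knockout minus wild type after TAC for each of the 76 members, ordered by size; bars are limma's 95% intervals. All points but those of Mrps12 and Mrps18c lie below 0, most intervals cross 0, and Mrpl1 lies lowest at -0.56.

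For the difference between the genotypes' responses to TAC, 0 members passed, as did 0.0% of all genes. At an unadjusted p under 0.05, 6 members were lower and 0 higher, against 4.77% and 2.99% of all genes. The smallest adjusted p was the 0.464 of Mrpl1. For 61 of 76 members (80.3%) the difference was below 0, that is, TAC lay lower against basal in knockout than in wild type, against 54.5% of all genes. The median was -0.113, with -0.178 without TAC wild type 3 and -0.068 without TAC wild type 1. The 2 TAC comparisons and the 2 genotype comparisons share arrays, so they are not independent views of the members.

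Per array, the median log2 level of the 76 members was 10.500, 10.315 and 10.390 in basal wild type and 10.365, 10.315 and 10.310 in basal knockout. It was 10.445, 10.375, 10.140 and 10.330 in TAC wild type and 10.170, 10.175, 10.250 and 10.165 in TAC knockout. The TAC knockout arrays lay below all arrays but TAC wild type 3. Markers of other cell types also differed between these arrays. The mean of the 9 macrophage markers was 8.07, 8.56, 10.37 and 8.79 in TAC wild type. The TAC knockout arrays lay between 9.30 and 9.54, against 7.27 to 7.43 in basal wild type and 7.62 to 7.72 in basal knockout. All 9 were measured, and 7 of 9 rose in each genotype. The 8 fibroblast markers ran from 9.84 to 10.77 in basal arrays, from 10.88 to 11.70 in TAC wild type and from 11.80 to 11.98 in TAC knockout. The 6 markers of dividing cells ran from 5.24 to 5.56 in basal arrays, from 5.84 to 9.39 in TAC wild type and from 7.67 to 8.46 in TAC knockout, and all 6 rose in each genotype. The 6 atrial markers ran from 8.06 to 11.40 in basal arrays and from 6.02 to 9.63 in TAC arrays. The part of these cells in the members' differences was not tested. The cardiomyocyte markers, between 13.93 and 14.30, had a median difference of -0.06 in wild type and -0.001 in knockout after TAC.

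**Figure D4:**
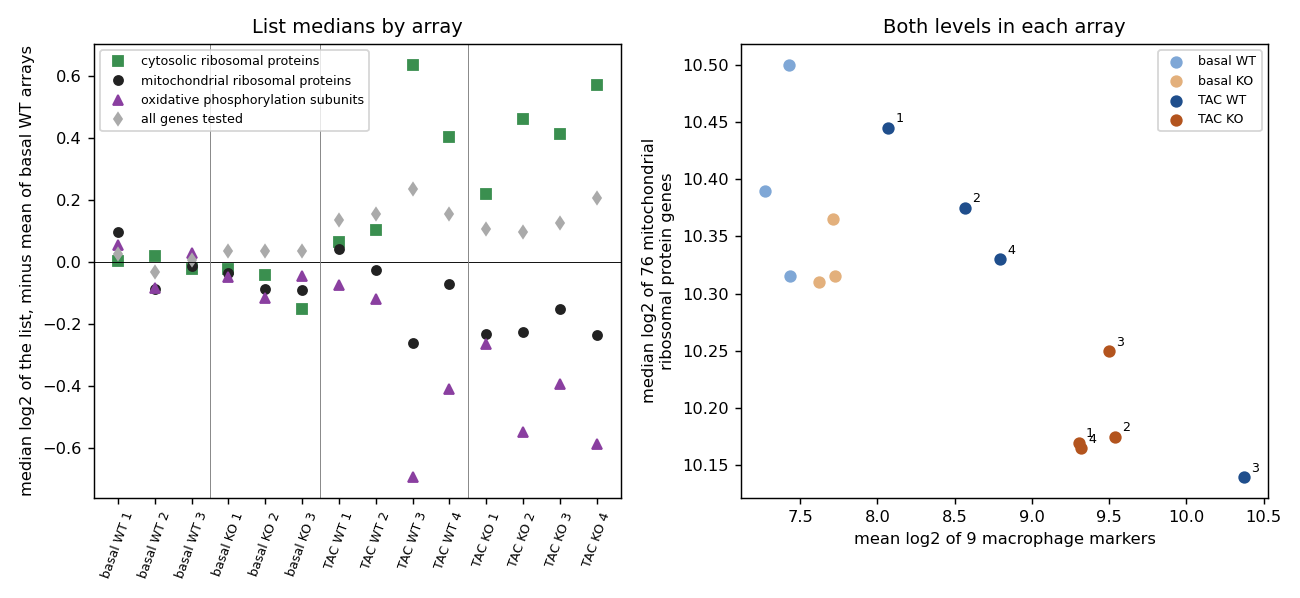
Left, median log2 level of each gene list in each array, minus its mean over the basal wild-type arrays. Right, members' median against the mean of 9 macrophage markers, 1 point per array, with array numbers beside TAC arrays; TAC wild type 3 has the highest macrophage mean (10.37) and the lowest members' median (10.14).

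The machinery around the mitoribosome was counted in the same way, against the shares of all genes given above, and none of these lists was tested against all genes or the members. Of 4 measured mitoribosomal proteins with other names, Dap3 fell in both genotypes (-0.63, adjusted p = 0.00289, and -0.71, adjusted p = 0.00195) and Chchd1 rose in both (0.45, adjusted p = 0.00432, and 0.39, adjusted p = 0.0115). Ptcd3 fell in knockout (-0.52, adjusted p = 0.0156), and Gadd45gip1 differed by -0.28 in wild type without passing. Of 27 assembly and rRNA modification factors, 2 rose and 5 fell in wild type (median -0.086), and 1 rose and 10 fell in knockout (median -0.279). Spg7, a subunit of the m-AAA protease, fell by 0.88 and 0.76 (adjusted p = 0.000244 and 0.000783), and Fastkd2, which binds the large rRNA, rose by 0.83 in wild type (adjusted p = 0.000279).

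Of 15 translation factors and membrane insertion proteins, 3 rose and 5 fell in wild type (median -0.173), and 1 rose and 8 fell in knockout (median -0.372). Tufm, the factor that delivers tRNA to the mitoribosome, fell by 0.83 (adjusted p = 0.00125) and 1.03 (adjusted p = 0.000534). Oxa1l, which inserts the new chains into the inner membrane, fell by 0.67 (adjusted p = 0.000283) and 0.78 (adjusted p = 0.000225). Of 18 mitochondrial aminoacyl-tRNA synthetases and amidotransferase subunits, 3 rose and 9 fell in wild type, and 2 rose and 9 fell in knockout. Cars2 fell by 0.88 and 1.12 (adjusted p = 0.00303 and 0.00109).

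Of 14 genes for mitochondrial transcription and RNA processing, 6 rose and 0 fell in wild type (median 0.227), where 26.9% of all genes rose. Mtpap, the mitochondrial poly(A) polymerase, rose by 0.74 in wild type and 0.54 in knockout (adjusted p = 0.000238 and 0.0019). Tfam, which packs and transcribes mitochondrial DNA, rose by 0.67 in wild type (adjusted p = 0.00206). In knockout 2 rose and 2 fell. Of 14 regulators of nuclear genes for mitochondria, 5 rose and 3 fell in wild type and 4 rose and 3 fell in knockout. Ppargc1a, the PGC-1 alpha coactivator, fell by 2.24 in wild type (adjusted p = 0.00137). Yy1 rose by 1.06 in wild type (adjusted p = 0.00136), Gabpb2, a GABP subunit, rose by 0.92 and 0.66 (adjusted p = 0.000684 and 0.00537), and Esrra, an estrogen-related receptor, fell by 0.64 in knockout (adjusted p = 0.000926). No gene of these lists passed in any comparison of knockout with wild type. After TAC, the median of knockout minus wild type was -0.148 for members and -0.152 for the mitoribosomal proteins with other names. It was -0.21 for assembly factors, -0.16 for translation factors and -0.133 for synthetases. For transcription and RNA processing it was -0.241, and for regulators -0.146. Genes given for 1 genotype alone were named for their small p there, and their values in the other genotype are not given here.

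For reference, 18 of 44 cytosolic ribosomal protein genes rose and 1 fell in wild type (median 0.241), and 29 rose and 1 fell in knockout (median 0.508). Of 76 nuclear oxidative phosphorylation subunits, 4 rose and 20 fell in wild type (median -0.267), and 1 rose and 25 fell in knockout (median -0.283). The median of knockout minus wild type after TAC was 0.083 for the cytosolic ribosomal list and -0.076 for the oxidative phosphorylation list. These lists were not tested against the members.

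**Figure D5:**
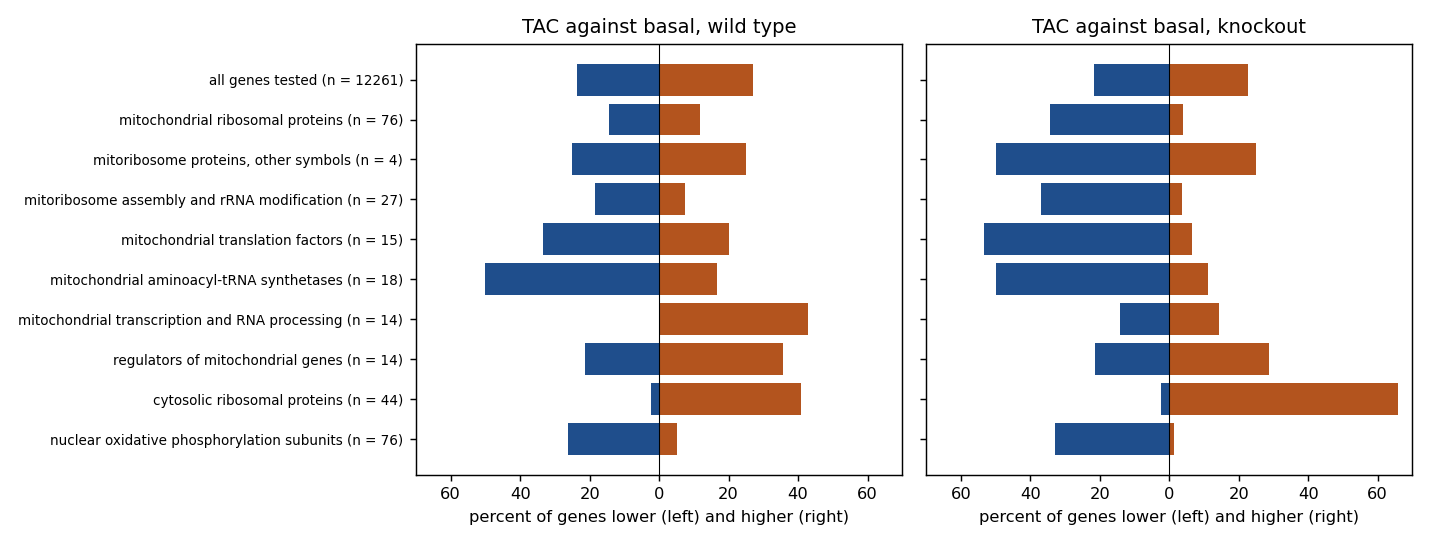
Percent of genes that rose (right) or fell (left) at limma's adjusted p under 0.05 after TAC in wild type and in knockout, for all genes, members and each list, with the number measured. In knockout 3.9% of members rose and 34.2% fell, against 22.7% and 21.8% of all genes.

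The neighbours that start near a member on the other strand gave values of their own. Both genes were measured for 20 of the 25 members with such a neighbour. Of the 8 among them that fell in knockout after TAC, 4 had a neighbour that also fell and 0 one that rose. The 4 were Mrpl43 (-0.31) with Twnk (-0.60, adjusted p = 0.00489), Mrps27 (-0.43) with Ptcd2 (-0.82, adjusted p = 0.00199), Mrpl2 (-0.45) with Klc4 (-0.40, adjusted p = 0.0167) and Mrpl55 (-0.61) with 2610507I01Rik (-0.84, adjusted p = 0.0156). The background for this is 21.8% of all genes lower. In other pairs 1 gene passed or neither did, and no difference within a pair was tested. Mrpl49 fell by 0.55 in knockout (adjusted p = 0.00722), while Fau differed by 0.20 (adjusted p = 0.146), and Mrpl32 differed by 0.01, while its neighbour Psma2, a proteasome subunit, rose by 0.55 (adjusted p = 0.00279). Mrpl46 fell by 0.39 and Mrps11, from the same stretch, differed by -0.27 (adjusted p = 0.126). Mrpl47 fell by 0.50 and its neighbour Ndufb5, a complex I subunit, differed by -0.27 (adjusted p = 0.137). Sars2 differed by -0.43 in wild type, a fall (adjusted p = 0.00763), beside Mrps12 at -0.32.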

How the data were processed

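The authors' deposited values are log2 expression per probe set, made with RMA per the submitters' processing notes; neither the version nor the set of arrays normalized jointly is stated there. Symbols came from the platform annotation, matched to RefSeq (34754 by gene ID, 1 by accession; 932 probe sets had several symbols and 9211 none). Probe sets above the table's median, 5.75, in at least 3 arrays were kept. All 14 arrays entered 1 limma 3.58.1 fit (R 4.3.3) with 4 group means, eBayes (10 residual and 3.43 prior degrees of freedom) and Benjamini-Hochberg adjustment over 12261 genes; the script was tested on simulated data. SE is the model's. Members named are those with the largest rises and falls past the threshold (up to 8 each way), the 5 smallest p where under 5 passed, those with disease links or known roles, and those with conflicting probe sets; from each other list, up to 3 by p. Members and lists were chosen with earlier results of these data known.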

Additional observations from a re-analysis of the deposited data

Results flagged for a closer look

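In 84 sets of 4 arrays tested (the named members and their median in each TAC group), 4 had an array whose gap to its nearest neighbour was large for the range of the group; chance flags about 1 in 20. In TAC knockout, array 2 lay below the others for Mrpl47 (9.61, the others 9.83 to 9.85) and for Mrps2 (9.13, the others 9.31 to 9.32), array 1 for Mrpl54 (8.55, the others 8.77 to 8.78), and array 3 lay above the others for the median of the members (10.25, the others 10.165 to 10.175).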

How the results depend on the processing

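The 14 arrays limit the precision. An alternative took, for each gene and comparison, the kept probe set with the smallest p, a choice that favours calls. On those probe sets 16 members rose after TAC in wild type. Members' counts there were 35 calls (3 rises, 32 falls, median -0.268) after quantile normalization, 6 falls after median centring and 7 falls with the replicate number as a block. In knockout they were 45 calls with 8 rises (median -0.32) on the probe sets with the smallest p, and 40 falls (median -0.32) after quantile normalization. Array weights gave 24 members for knockout against wild type after TAC and 1 for the difference of knockout effects (Mrpl1, adjusted p = 0.0409); the cause was not tested. Leaving out 1 array at a time gave 12 to 29 calls in wild type (5 to 9 rises, 5 to 23 falls) and 19 to 36 in knockout (2 to 4 rises, 17 to 33 falls), and 0 to 2 between genotypes after TAC. Such changes can also alter the calls over all genes. For counts within a genotype with an array left out, with the block or on the probe sets with the smallest p, shares of all genes are not given. The signs of Mrpl27 in wild type (0.035) and Mrpl13 in knockout (0.228) turned with the mean of probe sets. On the probe sets with the smallest p, the signs of Mrpl44 (0.307) and Mrps2 (-0.465) turned in wild type, and those of Mrpl13 (0.576) and Mrpl3 (-0.384) in knockout. Of 34 called differences named by the rule, 17 held under every alternative. Replicate numbers were not taken to pair samples. Over 19 same-numbered pairs, deviations from group means correlated with r from -0.161 to 0.594, and 6 of 14 arrays correlated best with their own number. The 2 pairs above 0.1 were TAC wild type 1 with TAC knockout 1 (0.594) and TAC wild type 4 with TAC knockout 4 (0.489). Both lie within the comparison of knockout with wild type after TAC. For arrays 2 and 3 of these groups r was -0.060 and -0.072. What the same-numbered TAC arrays share was not tested. With the block, 14 members were called in wild type and 27 in knockout. The count of members below 0 was added after seeing the data.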
